A study of Mus musculus with 6 samples.

Results

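The genes described here are 10 genes of tryptophan metabolism and sensing, taken from the count table by their symbols, out of 55487 genes listed. They are Ido1, Ido2 and Tdo2, which open the kynurenine pathway, Afmid, Kmo, Kynu and Haao, which carry it on, Wars, which loads tryptophan onto its tRNA, Ahr, the receptor that senses kynurenine, and Cyp1b1, a target of that receptor. RNA was sequenced from 6 subcutaneous tumors of CT26.WT colon carcinoma cells, which derive from a BALB/c mouse and are labelled with a wild-type genotype. The hosts were immunocompetent male BALB/c mice, purchased at an age of 4 weeks. The study kept 6 mice per group, and 3 tumors of each group were sequenced. Mice of the IFN-γ group were given 100 µL of mouse IFN-γ (100 ng/ml) into the tail vein at intervals of 48 h, and control mice received the same volume of PBS by that route. The comparison asks what repeated IFN-γ changed in tumors that hold cancer, immune and stromal cells together. In such bulk RNA, fewer cells of a type and less RNA per cell cannot be told apart.

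Cells break down most free tryptophan through the kynurenine pathway. Either indoleamine dioxygenase (Ido1, Ido2) or tryptophan dioxygenase (Tdo2) opens the ring, and a formamidase then releases kynurenine. IFN-γ is the classical inducer of IDO1 and of tryptophanyl-tRNA synthetase. In tumors, IDO1 is known for starving T cells of tryptophan and for making kynurenine, a ligand of the aryl hydrocarbon receptor (AhR).

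Each tumor had 15759300 to 17559680 counts on genes. A gene with 0 counts could have had up to 0.171 to 0.190 CPM, the level of 3 counts, counting error only. This limit was scaled by total counts alone, whereas all other CPM are counts scaled to library size with TMM factors. The labelled colon carcinoma was not marked by epithelial genes. The 7 epithelial genes listed for it summed to between 9.62 and 23.3 CPM, and Cdx2, a colon identity factor, was at 0 in all 6 tumors. IFN-γ tumor 3 stood apart from the other two of its group. The 14 IFN-γ target genes listed for reference, among them Irf1, Gbp2 and Cxcl9, summed to 3531 CPM in IFN-γ tumor 1, 3692 CPM in IFN-γ tumor 2 and 1707 CPM in IFN-γ tumor 3. In the controls the sum was 1323 to 2182 CPM. Socs1, 1 of the 14, did not follow the sum. It had 25.3, 23.5 and 27.1 CPM in IFN-γ tumors 1, 2 and 3, against 17.1 to 17.8 CPM in the controls. The 6 keratinocyte genes summed to 70.2 CPM in IFN-γ tumor 3 and to no more than 12.6 CPM in any other tumor. Results that rest on this tumor are therefore given with and without it. Because it stood out by the low sum of IFN-γ target genes, leaving it out favors a rise of genes low in it, Ido1 included. Values without it describe the other 5 tumors and are not independent evidence of a response.

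Levels were compared between genes as CPM per kb of annotated exon. Wars was the highest of the 10 by far, at a mean of 39.3 CPM per kb over the 6 tumors, above 90.7% of all genes tested. Ahr followed at 11.9, and the ranges of both genes over the 6 tumors overlapped neither each other nor any other gene of the set. Cyp1b1 (2.84 CPM per kb), Ido2 (2.47) and Ido1 (2.26) came next, and their ranges overlapped. Kmo (0.768), Afmid (0.699), Haao (0.454) and Kynu (0.232) formed the low end. Among these 4, each range overlapped that of its neighbour in this order. Kmo reached 1.16 CPM per kb, above the lowest value of Ido1 (1.06), so these 2 ranges overlapped as well. Tdo2, the tryptophan dioxygenase best known from liver, had 0 counts in every tumor. Per kb, Wars exceeded every other gene of the set in every tumor.

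Of the 10 genes, 9 passed the filter on low counts and were tested, and Tdo2 did not. With edgeR's quasi-likelihood test on all 6 tumors and an adjusted threshold of 0.05, 0 of the 9 were called higher and 0 lower, limma-voom also called 0, and DESeq2 called Ahr lower and none higher. Over all 15114 genes tested, 0.0794% were called higher and 0.0331% lower. At an unadjusted p under 0.05, Ido1 was higher and Ahr and Afmid were lower, against 5.74% higher and 4.44% lower over all genes. Without IFN-γ tumor 3, Ido1 rose and Ahr fell past the adjusted threshold, with 2.46% of 15487 genes called higher and 0.723% lower in that fit. Its unadjusted p was under 0.05 for 3 genes that were higher (Ido1, Cyp1b1 and Wars, against 9.6% of all genes) and 2 that were lower (Ahr and Afmid, against 6.69%). IFN-γ tumor 3 was the lowest of its group for 8 of the 9 genes, as for 38.9% of all genes tested, and Ahr was the exception. It was also below the control mean for all 9 genes tested, against 51.1% of all genes tested. IFN-γ tumors 1 and 2 were below the control mean for 4 and 3 of the 9, against 51.7% and 50.7% of all genes tested.

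**Figure D1:**
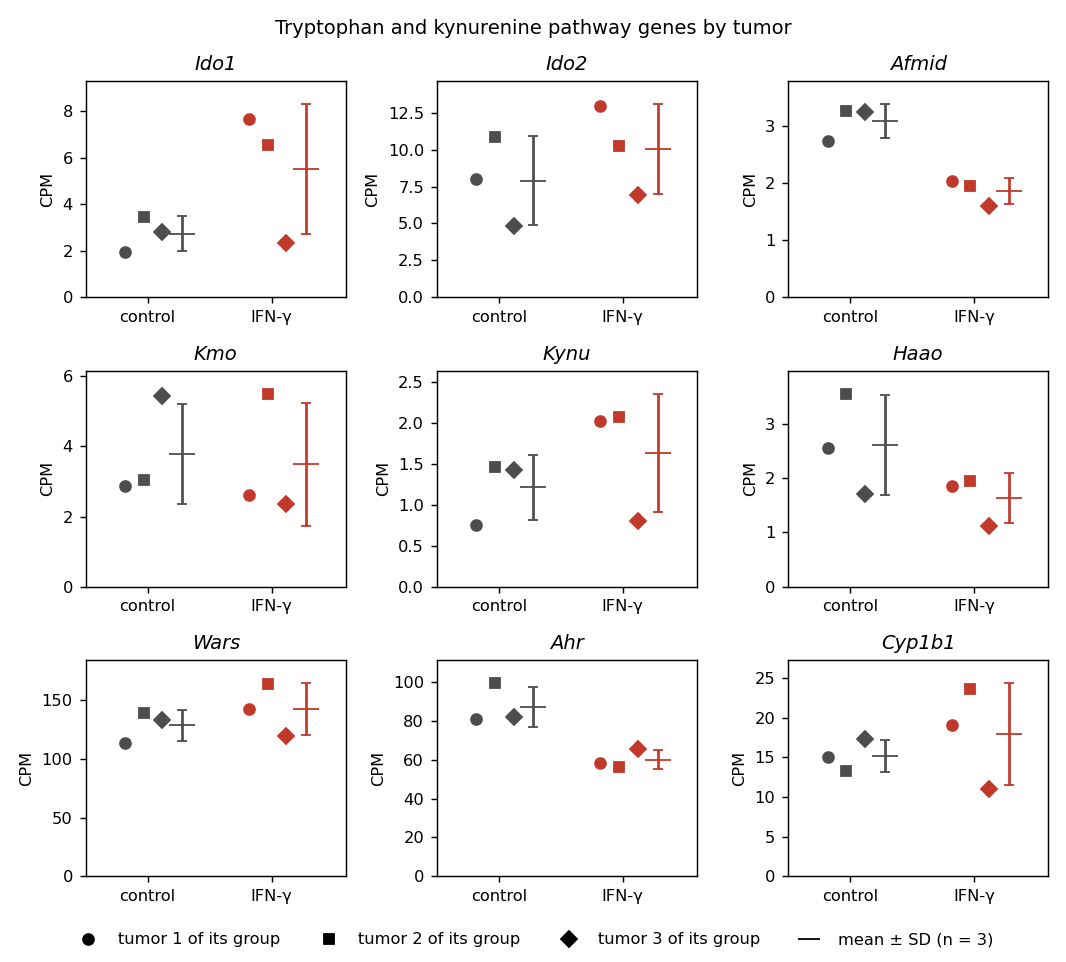
CPM (vertical axes, from 0) of the 9 tested genes in the 3 control tumors (grey) and the 3 IFN-γ tumors (red), with marker shapes for tumors 1, 2 and 3 of each group and bars for mean ± SD. Only Afmid and Ahr have groups that do not overlap, both lower in the IFN-γ group, and IFN-γ tumor 3 (diamond) lies within or below the controls for every gene.

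**Figure D2:**
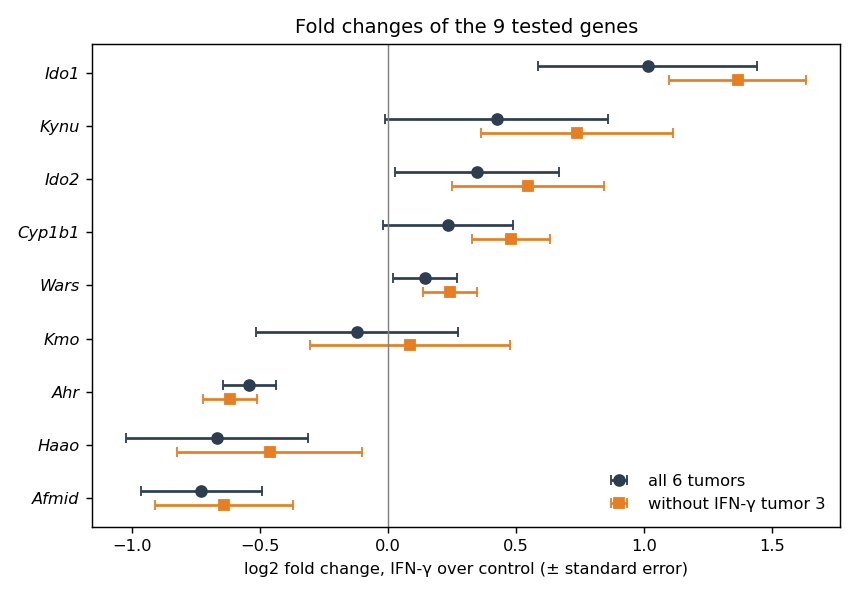
Log2 fold change with its standard error (edgeR) for the 9 tested genes, over all 6 tumors (circles) and without IFN-γ tumor 3 (squares). Ido1 moves from 1.01 to 1.37 when that tumor is left out, and Ahr stays between -0.62 and -0.54.

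Ido1 (ENSMUSG00000031551, 11 exonic blocks on the minus strand of chromosome 8, GRCm38, from 24584136 to 24597009) encodes the interferon-inducible dioxygenase. Control tumors 1, 2 and 3 had 31, 61 and 49 counts, against 132, 107 and 38 for IFN-γ tumors 1, 2 and 3. In CPM these were 1.94, 3.43 and 2.80 against 7.65, 6.53 and 2.35. IFN-γ tumors 1 and 2 were above every control, whereas IFN-γ tumor 3 lay between controls 1 and 3. Over all 6 tumors the mean went from 2.72 ± 0.752 CPM (SD, n = 3) to 5.51 ± 2.80 CPM (SD, n = 3). The log2 fold change was 1.01 (standard error 0.43, edgeR adjusted p = 0.470), or 2.02-fold, and did not pass the threshold. Without IFN-γ tumor 3 it was 1.37 (standard error 0.27, edgeR adjusted p = 0.034). Across the 13 alternatives the adjusted p of Ido1 ran from 0.034 to 0.849, and the log2 fold change stayed between 0.70 and 1.37.

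Ido2 lies beside Ido1 on the same strand of chromosome 8, from 24531892 to 24576333, and encodes a related dioxygenase of low catalytic activity. Its counts were 128, 193 and 85 for the controls against 224, 168 and 112 for the IFN-γ tumors, or 7.99, 10.9 and 4.85 CPM against 13.0, 10.2 and 6.92 CPM. The groups overlapped, with control tumor 2 (10.9 CPM) above IFN-γ tumor 2. Ido2 had a log2 fold change of 0.35 (standard error 0.32, edgeR adjusted p = 0.779). Per kb of exon, Ido1 made up 32.5%, 38.6% and 53.5% of the Ido1 and Ido2 transcripts together in control tumors 1, 2 and 3. The shares were 54.0%, 55.9% and 40.3% in the IFN-γ tumors, so control tumor 3 stood close to IFN-γ tumors 1 and 2. The log2 ratio of Ido1 to Ido2 in CPM averaged -1.34 ± 0.575 over the controls (SD, n = 3) and -0.91 ± 0.415 over the IFN-γ tumors (SD, n = 3). This ratio, examined after the values were seen, differed by 0.44 (two-sided exact permutation test, p = 0.3, with 0.1 as the lowest that 6 tumors can give).

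The shape of Ido1 over the 6 tumors was compared with that of all other tested genes. The measure was the root mean square difference of log2(CPM + 0.5) after each gene was centred on its own mean. The closest was Iigp1, an interferon-inducible GTPase, at 0.093 on the log2 scale, where Ido1 itself had an SD of 0.649. Gm12250 (0.099), Igtp, Nrgn (0.111) and Gbp3 (0.120) came next in that order. Igtp and Gbp3 are also interferon-inducible GTPases, and Nrgn encodes neurogranin, a calmodulin-binding protein of neurons. In each of the 5 genes, IFN-γ tumors 1 and 2 were high and IFN-γ tumor 3 was within the range of the controls. These likenesses rest on 6 tumors and carry no test.

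**Figure D3:**
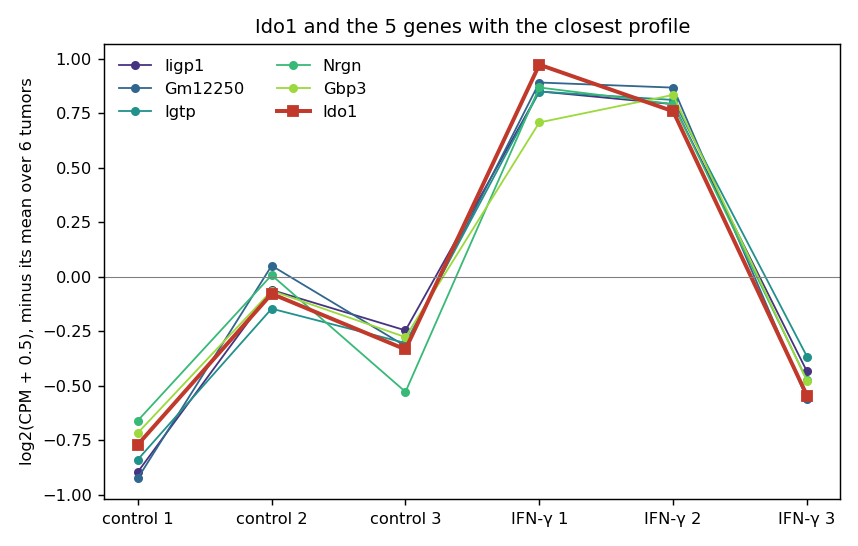
Log2(CPM + 0.5) of Ido1 (red squares) and of the 5 genes with the closest profile, each minus its mean over the 6 tumors. Lines join tumors only to guide the eye. IFN-γ tumors 1 and 2 are high for all 6 genes, and IFN-γ tumor 3 falls back among the controls.

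Afmid (chromosome 11, plus strand, from 117825924 to 117839908) encodes the formamidase that releases kynurenine after the ring is opened. Its counts were 44, 58 and 57 for the controls against 35, 32 and 26 for the IFN-γ tumors, or 2.75, 3.27 and 3.25 CPM against 2.03, 1.95 and 1.61 CPM. Every IFN-γ tumor was below every control. Groups that did not overlap in this direction were found in 7.5% of all genes tested. The log2 fold change of -0.73 (standard error 0.24) had an unadjusted p of 0.014 and an adjusted p of 0.367 (edgeR). Of its annotated exonic bases, 44.2% are shared with Gm20708, a gene model on the same strand that had 0 counts in all tumors, and 2.35% with Tk1 on the opposite strand. How reads on shared bases were assigned is not given in the sources used here, so the level of Afmid is uncertain.

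Kmo, Kynu and Haao follow kynurenine toward NAD. Kmo, the monooxygenase that makes 3-hydroxykynurenine, rested on 38 to 95 counts a tumor and had 2.87, 3.04 and 5.42 CPM in the controls and 2.61, 5.49 and 2.35 CPM in the IFN-γ tumors. One tumor of each group, control 3 and IFN-γ 2, was high, and the others were alike. Its log2 fold change of -0.12 (standard error 0.39, edgeR adjusted p = 0.950) turned positive without control tumor 3 (0.23), IFN-γ tumor 1 (0.052) or IFN-γ tumor 3 (0.086). Kynu, the kynureninase, rested on 12 to 35 counts a tumor. It had 0.749, 1.46 and 1.43 CPM in the controls and 2.03, 2.07 and 0.803 CPM in the IFN-γ tumors, with a log2 fold change of 0.42 (standard error 0.44, edgeR adjusted p = 0.804). IFN-γ tumors 1 and 2 were above every control and IFN-γ tumor 3 was near the lowest one, a layout like that of Ido1. Haao, which makes the precursor of quinolinic acid, went from 41, 63 and 30 counts (2.56, 3.55 and 1.71 CPM) for the controls to 32, 32 and 18 counts (1.85, 1.95 and 1.11 CPM) for the IFN-γ tumors. The groups overlapped through control tumor 3, with a log2 fold change of -0.67 (standard error 0.36, edgeR adjusted p = 0.574).

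The rest of the pathway was examined with 10 further genes, of which 8 were tested and 0 passed the adjusted threshold in either direction, while 1 (Kyat3) had an unadjusted p under 0.05. Their median log2 fold change was -0.044, against 0.0015 over all genes tested. Kyat3 was higher, as were 5.74% of all genes tested at that unadjusted p. Aadat, a kynurenine aminotransferase, and Acmsd, which diverts the pathway away from NAD, had 0 counts in every tumor. Got2, the mitochondrial aspartate aminotransferase that can also act on kynurenine, was the most abundant by CPM at 155 to 177 CPM, with a log2 fold change of -0.0065 (edgeR adjusted p = 0.993). Kyat3, another kynurenine aminotransferase, had 0.749, 1.13 and 1.20 CPM in the controls and 1.80, 2.07 and 1.36 CPM in the IFN-γ tumors, without overlap. Groups that did not overlap in this direction were found in 7.63% of all genes tested, and the log2 fold change of 0.76 did not pass the threshold (standard error 0.32, edgeR adjusted p = 0.476). Qprt, which turns quinolinic acid into an NAD precursor, was at or under 1.52 CPM in every tumor, with a log2 fold change of -0.99 (standard error 0.54, edgeR adjusted p = 0.580).

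Wars (chromosome 12, minus strand, from 108860030 to 108894174) was measured on 1824 to 2688 counts a tumor. It had 114, 139 and 133 CPM in the controls and 143, 164 and 120 CPM in the IFN-γ tumors. IFN-γ tumors 1 and 2 were above every control by a small margin, and IFN-γ tumor 3 lay between controls 1 and 3. The log2 fold change was 0.14 (standard error 0.13, edgeR adjusted p = 0.761), and 0.24 (standard error 0.11, edgeR adjusted p = 0.299) without IFN-γ tumor 3. The 13 alternatives gave an adjusted p of 0.299 to 0.988. Its closest profiles were those of Slc9a3r1, Ptger4, Ifi35, Pacs2 and N6amt1, at 0.032 to 0.046 on the log2 scale, where Wars had an SD of 0.171. Of these, Ifi35 is an interferon-induced gene.

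The 19 genes of other cytosolic tRNA synthetases served as a yardstick, since those enzymes load the other amino acids. All 19 were tested, and 0 were called in either direction (1, Iars, at an unadjusted p under 0.05), with 3 log2 fold changes above 0, 16 below 0 and a median of -0.060. Over all genes tested, 7623 were above 0 and 7491 below 0, and 4.44% were lower at that unadjusted p, as Iars was. Iars, with a log2 fold change of -0.22 (standard error 0.069, edgeR adjusted p = 0.361), and Cars, at -0.18 (standard error 0.092, edgeR adjusted p = 0.562), had the largest changes. Nars had the highest mean by CPM, and had a log2 fold change of -0.078 (standard error 0.094, edgeR adjusted p = 0.833). In log2 ratio to its control mean, Wars was above all 19 in IFN-γ tumors 1 and 2. The same held in control tumor 2. In IFN-γ tumor 1 the margin was narrow, at 0.147 for Wars against 0.142 for Kars. In control tumor 3 Wars was above 16 of the 19, in IFN-γ tumor 3 above 2 and in control tumor 1 above none of them. The log2 ratio of Wars to the mean of the 19 was -0.79, -0.43 and -0.51 for the controls against -0.28, -0.12 and -0.72 for the IFN-γ tumors. The group means differed by 0.20 (two-sided exact permutation test, p = 0.4, lowest possible 0.1). The groups overlapped through IFN-γ tumor 3. In log2 ratio to the control mean, the median of the 19 was itself -0.16, -0.096 and 0.039 in IFN-γ tumors 1, 2 and 3.

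**Figure D4:**
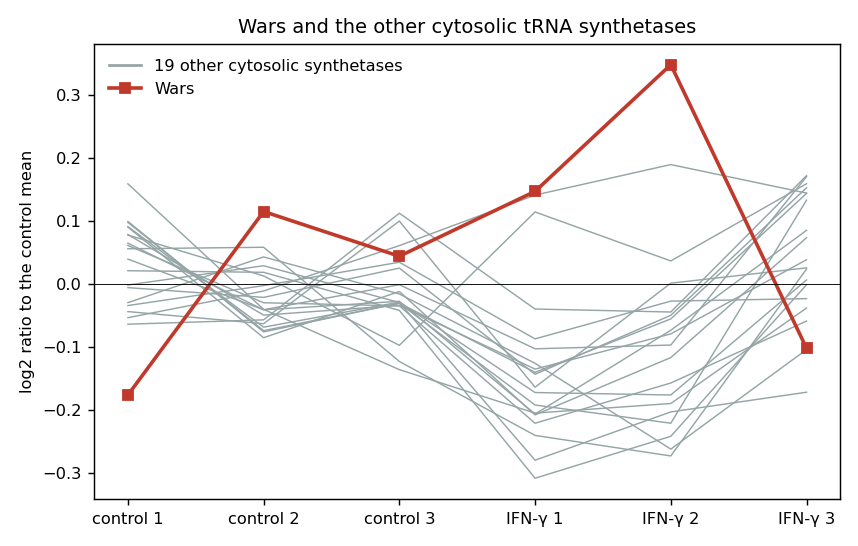
Log2 ratio to the control mean, on log2(CPM + 0.5), of Wars (red squares) and of the 19 genes of other cytosolic tRNA synthetases (grey lines) in each tumor. Lines join tumors only to guide the eye. Wars lies at 0.15 and 0.35 in IFN-γ tumors 1 and 2, above all grey lines (narrowly in IFN-γ tumor 1), and at -0.10 in IFN-γ tumor 3.

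Genes of the response to amino acid shortage were set beside Wars, because uncharged tRNA activates the kinase encoded by Eif2ak4 (GCN2) and, through it, the transcription factor ATF4. Of these 11 genes, 0 passed the adjusted threshold, 4 were lower at an unadjusted p under 0.05, 10 had a log2 fold change below 0, and the median was -0.22. Over all genes tested, 4.44% were lower at that unadjusted p, and 7491 of 15114 had a log2 fold change below 0. Trib3, an ATF4 target, had 63.3, 48.9 and 43.5 CPM in the controls and 27.7, 30.4 and 45.0 CPM in the IFN-γ tumors, with a log2 fold change of -0.60 (standard error 0.20, edgeR adjusted p = 0.379). Ddit3, which encodes the stress factor CHOP, had a log2 fold change of -0.51 (standard error 0.19, edgeR adjusted p = 0.400). Atf4 itself was the most abundant by CPM, with a log2 fold change of -0.10 (standard error 0.11, edgeR adjusted p = 0.822). Without IFN-γ tumor 3, 2 of the 11 fell past the threshold, Trib3 (-0.85, edgeR adjusted p = 0.027, range over its 13 alternatives 0.027 to 0.797) and Chac1, an enzyme of glutathione breakdown (-0.80, edgeR adjusted p = 0.039). That fit called 0.723% of all genes tested lower. Chac1 was named after its values were seen.

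Tryptophan carriers showed 0 of 8 tested genes past the adjusted threshold over all 6 tumors, with a median log2 fold change of -0.0051 and 1 gene lower at an unadjusted p under 0.05. That gene was Slc7a5, the light chain of the main tryptophan carrier, named after its values were seen. It had 186, 148 and 158 CPM in the control tumors against 114, 140 and 149 CPM in the IFN-γ tumors, where only IFN-γ tumor 3 overlapped the controls. Slc7a5 had a log2 fold change of -0.29 (standard error 0.12, unadjusted p = 0.047, edgeR adjusted p = 0.483), and -0.38 (edgeR adjusted p = 0.157) without IFN-γ tumor 3. At an unadjusted p under 0.05, 4.44% of all genes tested were lower over all 6 tumors. Slc43a2, a carrier of large neutral amino acids, had 27.0, 28.8 and 29.6 CPM in the controls and 40.2, 47.5 and 25.9 CPM in the IFN-γ tumors. Its log2 fold change was 0.41 (standard error 0.19, edgeR adjusted p = 0.516), and without IFN-γ tumor 3 it rose by 0.62 (edgeR adjusted p = 0.022, range over its 13 alternatives 0.022 to 0.907). The fit without that tumor called 2.46% of all genes tested higher. Slc16a10, a carrier of aromatic amino acids, was also high in IFN-γ tumors 1 and 2 and low in IFN-γ tumor 3, at 7.37, 7.04 and 10.04 CPM against 13.9, 12.8 and 6.73 CPM (log2 fold change 0.45, standard error 0.28, edgeR adjusted p = 0.642). Slc1a5, a glutamine carrier and the most abundant of the list by CPM, had a log2 fold change of -0.19 (standard error 0.10, edgeR adjusted p = 0.558).

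For other fates of tryptophan, 0 of 6 tested genes passed, with a median of 0.13 and 1 (Maob) at an unadjusted p under 0.05. Inmt, which methylates tryptamine, had 1.87, 5.29 and 8.39 CPM in the controls and 15.9, 18.1 and 3.83 CPM in the IFN-γ tumors (log2 fold change 1.28, standard error 0.61, edgeR adjusted p = 0.531). Maob, a monoamine oxidase, had a log2 fold change of 0.46 (standard error 0.16, edgeR adjusted p = 0.389), with no overlap between the groups. Maoa, the other monoamine oxidase and the most abundant by CPM, had a log2 fold change of -0.045 (standard error 0.096, edgeR adjusted p = 0.916). In NAD salvage, which makes NAD without tryptophan, 0 of 4 tested genes passed and 1 (Nampt) had an unadjusted p under 0.05. Nampt, its rate-limiting enzyme, had 134, 156 and 148 CPM in the controls and 194, 206 and 159 CPM in the IFN-γ tumors, without overlap. Nampt had a log2 fold change of 0.35 (standard error 0.11, edgeR adjusted p = 0.354). Beside Maob and Nampt, 5.74% of all genes tested were higher at an unadjusted p under 0.05, and 7.63% were higher without overlap. Without IFN-γ tumor 3 Nampt rose by 0.44 (edgeR adjusted p = 0.033, range over its 13 alternatives 0.033 to 0.789). That fit called 2.46% of all genes tested higher. Nnmt, which methylates nicotinamide, had a log2 fold change of 0.25 (standard error 0.13, edgeR adjusted p = 0.547).

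Ahr (chromosome 12, minus strand, from 35497974 to 35535038) had the smallest p of the 10 genes. Its counts were 1296, 1760 and 1432 for the controls against 1007, 921 and 1060 for the IFN-γ tumors. In CPM these were 80.9, 99.1 and 81.7 against 58.4, 56.2 and 65.5, and every IFN-γ tumor, IFN-γ tumor 3 included, was below every control. The mean went from 87.2 ± 10.3 CPM (SD, n = 3) to 60.0 ± 4.85 CPM (SD, n = 3). The log2 fold change was -0.54 (standard error 0.10), which is 0.688 of the control level, with an unadjusted p of 0.00068 and an adjusted p of 0.145 (edgeR). Ahr therefore did not pass the threshold over all 6 tumors in edgeR. It fell past the threshold with DESeq2 (-0.54, adjusted p = 0.0026), with edgeR and no filter on low counts (-0.54, adjusted p = 0.0088), and with edgeR without IFN-γ tumor 3 (-0.62, adjusted p = 0.024). DESeq2 called 0.827% of all genes higher and 0.47% lower, and testing with no filter called 0.558% higher and 0.261% lower. Across the 13 alternatives the adjusted p ran from 0.0026 to 0.563 and the log2 fold change from -0.62 to -0.44, below 0 in every one. Of the exonic bases of Ahr, 2.06% are shared with a long noncoding RNA on the opposite strand, which had 14 counts over all tumors.

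Cyp1b1, which AhR induces together with Cyp1a1 and Cyp1a2, was measured on 178 to 388 counts a tumor and had 15.05, 13.3 and 17.3 CPM in the controls and 19.1, 23.7 and 11.0 CPM in the IFN-γ tumors. IFN-γ tumors 1 and 2 were above every control and IFN-γ tumor 3 below every control. The log2 fold change was 0.23 (standard error 0.25, edgeR adjusted p = 0.816), and it was -0.019 without IFN-γ tumor 2. Ahr and Cyp1b1 thus lay on opposite sides of the controls in IFN-γ tumors 1 and 2. AhR binds DNA at the core GCGTG, so the 250 bases before the start of Cyp1b1 are shown with that core, read on both strands, in capitals. The sequence is from RefSeq (GRCm38.p6, minus strand, chr17:79715062-79715311), printed 5′ to 3′.
Cyp1b1 promoter: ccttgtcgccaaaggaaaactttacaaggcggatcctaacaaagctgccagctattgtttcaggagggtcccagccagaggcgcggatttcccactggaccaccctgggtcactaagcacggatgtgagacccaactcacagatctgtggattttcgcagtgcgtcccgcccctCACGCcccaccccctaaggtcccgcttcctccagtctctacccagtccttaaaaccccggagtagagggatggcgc
It holds 1 match, on the opposite strand, starting 76 bases before the transcription start. Of 32851 promoters of that length, 28.2% hold at least 1 match. Of the 5 genes of the set with a sequence in this table, Haao and Tdo2 also had 1 match and Kmo and Afmid had 0. The interferon-gamma activated site TTCNNNGAA, found in 7.02% of all promoters, and the interferon-stimulated response element (a pair of GAAA repeats set 2 bases apart), found in 2.98%, had 0 matches in these 5 windows on either strand. No conclusion is drawn from 0 matches in 5 windows, given how few promoters hold either motif. Ido1, Ido2, Wars, Kynu and Ahr had no sequence to scan, so the search says nothing of them. A match is a description of letters and not a binding site.

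Among partners and targets of AhR, 0 of 9 tested genes passed the adjusted threshold over all 6 tumors, 1 (Aldh3a1) had an unadjusted p under 0.05, and the list's median was 3.9e-05 on the log2 scale. Cyp1a1 had 1 count over all tumors and Cyp1a2 had 0, so these classical readouts of the receptor were not detectable at this depth. Other targets on the list were detected, and Tiparp and Nqo1 are named after their values were seen. Tiparp had a log2 fold change of 0.039 (standard error 0.11, edgeR adjusted p = 0.942). Nqo1 was at -0.18 (standard error 0.15, edgeR adjusted p = 0.747). Aldh3a1, an aldehyde dehydrogenase that AhR can induce, had 134, 125 and 125 CPM in the controls and 49.6, 45.9 and 75.2 CPM in the IFN-γ tumors. The groups were far apart, and IFN-γ tumor 3 was again the one closest to the controls. Its log2 fold change was -1.17 (standard error 0.17, edgeR adjusted p = 0.074). At an unadjusted p under 0.05, 4.44% of all genes tested were lower. Aldh3a1 fell past the threshold with DESeq2 (adjusted p = 1.3e-08), with edgeR and no filter on low counts (adjusted p = 2.1e-05) and with edgeR without IFN-γ tumor 3 (-1.43, adjusted p = 0.00021), within a range of 1.3e-08 to 0.309 over its 13 alternatives. Ahrr, the repressor of AhR, was at or under 1.28 CPM in every tumor (log2 fold change 0.21, standard error 0.50, edgeR adjusted p = 0.927). Hsp90ab1, a chaperone that holds the unbound receptor and the most abundant by CPM, differed by 3.9e-05 on the log2 scale (standard error 0.082, edgeR adjusted p = 1). This value of Hsp90ab1 turned negative under 8 of its 13 alternatives, none beyond -0.034.

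**Figure D5:**
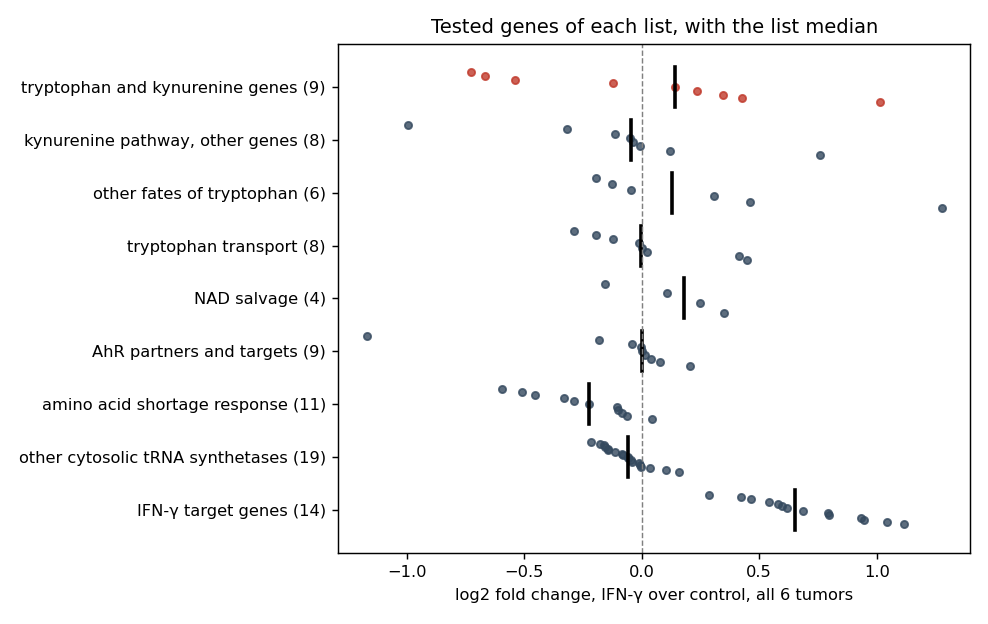
Log2 fold change over all 6 tumors (horizontal axis) of each tested gene in the 9-gene set (red) and in 8 reference lists (dark), with the number tested in brackets, the list median as a black bar and the median of all genes tested as a dashed line. The 14 IFN-γ target genes all lie above 0, with a median of 0.65, whereas the red points spread from -0.73 to 1.01.

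The 14 IFN-γ target genes give the scale of the response that the set is read against. With edgeR 0 passed the adjusted threshold over all 6 tumors (DESeq2 called 1, and edgeR with no filter on low counts 4), 9 had an unadjusted p under 0.05, and the median log2 fold change was 0.65. Over all genes tested, 5.74% were higher at that unadjusted p. Without IFN-γ tumor 3, which stood out by the sum of these same genes, 10 of the 14 passed as higher, with a median of 0.93. That fit called 2.46% of all genes tested higher. In the same fit, Ido1 was the single gene of the 9 called higher, and their median was 0.24.

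Markers of other cell types moved with some of these values, and their part in the results was not tested. The 7 macrophage genes summed to 1498 to 1631 CPM in the controls and to 2005, 2164 and 1514 CPM for the IFN-γ tumors in their order. The 7 T cell genes summed to 43.8 to 67.5 CPM in the controls and to 92.3, 107 and 36.9 CPM in the same tumors. The 7 dendritic cell genes gave 35.0 to 53.5 CPM in the controls and 67.6, 71.6 and 40.4 CPM. These 3 sums, like Ido1 and Kynu, were high in IFN-γ tumors 1 and 2 and within or near the controls in IFN-γ tumor 3. Not every gene followed its sum. Of the macrophage genes, 5 had log2 fold changes above 0. Mrc1 was lower without overlap (-0.22, standard error 0.085, edgeR adjusted p = 0.437), and Cd14 was at -0.039. Of the dendritic cell genes, 6 were above 0 and Zbtb46 was at -0.17. Beside Ahr, the 6 endothelial genes summed to 214 to 274 CPM in the controls and 177 to 231 CPM in the IFN-γ tumors. Of these, 0 of 6 were called, and Kdr and Cdh5 were lower without overlap, against 7.5% of all genes tested. Cdh5 cleared overlap narrowly, at 68.6 CPM in IFN-γ tumor 1 and 69.0 CPM in control tumor 1. The other endothelial genes overlapped, with log2 fold changes of -0.25 (Emcn), -0.20 (Pecam1), 0.00053 (Tek) and 0.065 (Cldn5). The 6 fibroblast and pericyte genes summed to 2008, 1571 and 2862 CPM in the controls and 2556, 2803 and 1540 CPM in the IFN-γ tumors. Most of each sum was Col1a1 and Col3a1. Control tumor 3 and IFN-γ tumor 2, the tumors highest in Kmo, were also highest here in their groups. IFN-γ tumor 1 was high here too but not in Kmo (2.61 CPM). Of the 6 genes, the pericyte gene Rgs5 was lower without overlap, as Ahr was. Rgs5 had 60.9 to 79.1 CPM in the controls and 38.6 to 55.6 CPM in the IFN-γ tumors (log2 fold change -0.66, standard error 0.15, unadjusted p = 0.0022, edgeR adjusted p = 0.228). The others of this list overlapped, at log2 fold changes of 0.29 (Dcn), 0.17 (Col3a1), 0.027 (Col1a1), -0.11 (Pdgfra) and -0.14 (Pdgfrb). The median log2 fold change of the 6 adipocyte genes was 2.17, with 5 of 6 higher without overlap, against 7.63% of all genes tested, and 0 called. The 6 neutrophil genes summed to 28.4 to 36.9 CPM and 36.7 to 47.4 CPM in the control and IFN-γ groups. Most of each sum was Csf3r, at 21.3, 25.3 and 22.3 CPM in the controls and 38.8, 38.6 and 24.0 CPM in the IFN-γ tumors. Of the others tested, S100a8 (0.16) and Cxcr2 (0.62) had log2 fold changes above 0, and S100a9 (-0.082) and Mmp8 (-0.45) below 0. The 6 hepatocyte genes summed to at most 1.16 CPM, with Ttr and Fgb at 0 in every tumor, beside the 0 counts of Tdo2.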

How the data were processed

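Total RNA of 6 tumors was sequenced on Illumina libraries. The authors deposited raw counts, 1 value for each gene and tumor, with no normalization. The submitters' processing notes name HISAT2 and mm10. The counting program and strandedness are not given in the sources used here. GENCODE M21 (GRCm38), which holds 99.4% of the identifiers, gave positions and exon lengths, and RefSeq gave promoter sequences.

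Counts were tested with edgeR 4.0.16 (R 4.3.3): default filter on low counts, TMM factors, quasi-likelihood test, Benjamini-Hochberg adjustment over all genes tested, threshold 0.05. The standard error was the log2 fold change divided by the square root of F. CPM used total counts times TMM factors. DESeq2 1.42.0, limma 3.58.1 (voom), library size only, upper-quartile factors, 2 other filters, a replicate block and leaving out each tumor were the 13 alternatives. Ratios used log2(CPM + 0.5) and exact permutation tests (SciPy 1.17.1).

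The 10 genes and all lists were chosen with earlier results of these data known. Genes named from each of 7 pathway lists were those past the threshold, the 2 with the largest absolute change and the 1 with the highest mean CPM. Scripts were tested on simulated counts. No 2 libraries appeared to be duplicates (smallest chi-square per gene 6.17). Nothing in the sources states how the 3 tumors of a group relate beyond separate samples, so p-values measure the spread between these tumors. Depth was 15759300 to 17559680 counts per tumor, and the counts behind each of the 10 genes are given with its values.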

Additional observations from a re-analysis of the deposited data

How the results depend on the processing

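Of the 10 genes, 0 were called higher and 0 lower over all 6 tumors. The fits that each left out 1 tumor gave from 0 to 1 in each direction, with Ido1 higher and Ahr lower without IFN-γ tumor 3. DESeq2 called 1 lower, as did testing without a low-count filter, Ahr in both. Over all genes, 12 were higher and 5 lower. Leaving out 1 tumor gave 4 to 381 higher and 2 to 112 lower, both highest without IFN-γ tumor 3. DESeq2 gave 125 and 71 and no filter gave 150 and 70. Library size only gave 7 higher and limma-voom gave 3 lower. In the 7 pathway lists, 0 genes were called in either direction. Leaving out 1 tumor gave from 0 to 2 higher and from 0 to 3 lower, and DESeq2 and no filter gave 1 lower each (Aldh3a1). The cause was not tested. With a replicate block, 5 genes were higher and 2 lower, with 0 of the 10. Shared replicate numbers did not pair tumors (correlations of deviations -0.24, -0.0047 and -0.22).

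Of 116 comparisons of the 9 tested genes, 108 kept direction and side of the threshold, 4 passed it and 4 reversed. Kmo reversed without control tumor 3 (0.226), IFN-γ tumor 1 (0.052) and IFN-γ tumor 3 (0.086), and Cyp1b1 without IFN-γ tumor 2 (-0.019). Of 256 comparisons of named list genes, 235 kept both, 6 passed and 15 reversed. Got2 reversed without control tumor 3 (0.032), IFN-γ tumor 1 (0.027) and IFN-γ tumor 3 (0.0051), Maoa without control tumor 1 (0.031) and IFN-γ tumor 1 (0.022), and Ahrr without control tumor 1 (-0.13) and IFN-γ tumor 2 (-0.031). Hsp90ab1 reversed with library size only (-0.034), upper-quartile factors (-0.010), DESeq2 (-0.00091) and at least 1 CPM in 3 tumors (-0.0058), and without control tumor 1 (-0.031), control tumor 2 (-0.022), IFN-γ tumor 2 (-0.019) or IFN-γ tumor 3 (-0.034). The difference between groups in the log2 ratio of Wars to the other synthetases (0.20) stayed above 0 in 8 alternatives, from 0.073 to 0.376 across the fits that each left out 1 tumor. Leaving out 1 tumor at a time moved Kmo between -0.61 and 0.226, Cyp1b1 between -0.019 and 0.48, Got2 between -0.062 and 0.032, Maoa between -0.12 and 0.031, Hsp90ab1 between -0.034 and 0.048 and Ahrr between -0.13 and 0.59. Tdo2, with 0 counts, gave no value in any fit, and DESeq2 gave no adjusted p for Kynu.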
